A study of Mus musculus with 18 samples.

Results

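The comparison described here sets the colon of mice that drank dextran sulfate sodium (DSS) and were then given the wild-type Lactobacillus plantarum strain ZJ316 against the colon of untreated mice. RNA of the whole colon was sequenced in bulk. Genes that reached 1 FPKM in 3 or more of the 7 libraries were taken, which gave 12788 of the 18349 genes in the deposited table. FPKM gives the fragments per kilobase of a transcript after scaling for library size. Mice of the WT group (n = 4) drank 2.5% DSS for 7 days and were then gavaged daily with ZJ316 for 5 weeks. Mice of the DSS group (n = 3) had the same DSS course and then PBS by gavage over the same 5 weeks. Their values are set beside those of WT, and WT was also tested against DSS. Control mice (n = 3) drank water and were fed normally, and no gavage of them is mentioned in the labels. All were male C57BL/6 mice of wild-type genotype, so WT below means the bacterial strain and not the mice. DSS, the gavage and the bacteria all differ between WT and Control, and their effects cannot be told apart here. The fit held all 18 libraries of 5 groups. The DSS group and the groups given the strains labelled ZJ316_KO and ZJ316_COM after DSS thus entered the shared estimate of the spread. The libraries are numbered without being tied to single animals, so p-values measure the spread between these samples, which may be technical.

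DSS is a sulfated polysaccharide that damages the colonic epithelium and lets bacteria reach the tissue below. The injury is followed by entry of neutrophils and monocytes, activation of fibroblasts and endothelium, and regrowth of the epithelium from crypt stem cells. The intact colon absorbs water and salts, burns butyrate from bacterial fermentation in its mitochondria, is covered by goblet cell mucus, and is moved by smooth muscle under the control of enteric neurons. Lactobacillus plantarum is a lactic acid bacterium.

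The 7 libraries held 16446 to 16740 genes above 0, and their FPKM totals lay between 517933 and 558590; the number of reads is unknown. Genes of the colonic epithelium were abundant in all of them. Zg16, a goblet cell lectin, averaged 4690.2 ± 440.0 FPKM in WT and 3299 ± 1513 FPKM in Control, and the goblet cell peptide gene Tff3 averaged 2207 ± 158 and 1690.4 ± 702 FPKM in WT and Control (SD, n = 4 and 3). Control 3 stood apart from the other 6 libraries. The mean log2(FPKM + 1) of distal gut Hox genes, regulators of regional identity, was 1.36 in this library, against 3.08 to 3.70 in WT and 3.32 and 3.77 in the other 2 Control libraries. Hoxb13, a marker of the most distal colon, lay at 253, 228, 221 and 305 FPKM in WT 1 to 4, against 364, 296 and 0.76 FPKM in Control 1 to 3. The same mean for B cell markers was 0.40, with 1.91 or more in the others. Adipocyte genes stood at 4.28 in Control 3, with 2.72 to 3.39 in WT. Small intestine genes were highest in Control 3 at 2.29 and in Control 2 at 1.88, with 1.27 to 1.51 in WT. Squamous epithelium genes, typical of stratified linings such as the anal canal, stood at 3.01 in WT 2 and 2.44 in WT 4, and at 1.30 or less in the other 5. Pancreatic acinar genes had means of 0.95 to 1.08 in WT and 0.77 to 1.07 in Control. In 3 libraries of other groups, which enter the shared estimate of the spread, this mean was far higher: 10.33 in DSS 1, 7.88 in DSS 3 and 8.79 in KO 3, of the group given the strain labelled ZJ316_KO after DSS. Results that rest on Control 3 are given with and without it below.

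**Figure D1:**
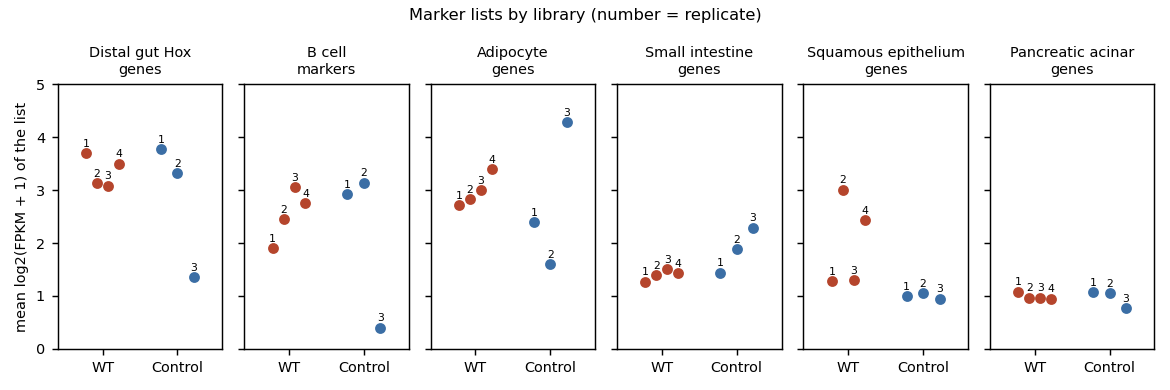
Mean log2(FPKM + 1) of 6 marker lists in each WT and Control library, with the replicate number above each point. Control 3 lies apart in the distal gut Hox genes (1.36), B cell markers (0.40) and adipocyte genes (4.28), and WT 2 and WT 4 lie above the rest in squamous epithelium genes.

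Between WT and Control, limma called 3037 of 12788 genes, or 23.7%, at a Benjamini-Hochberg adjusted p under 0.05. Of these, 1933 were higher in WT (15.1% of genes tested) and 1104 were lower (8.63%). Differences are log2 fold changes of FPKM + 1, WT minus Control, given ± SE, a scale that understates the change of genes with low FPKM. The WT and Control libraries did not overlap in 3564 genes, 27.9% of those tested, and among called genes in 1646 of the higher and 933 of the lower ones. A change of at least 1 on the log2 scale was seen for 251 called genes that rose and 50 that fell. The median over all genes tested was 0.05. The split between directions moved with the scaling: 63.6% of calls were higher in WT on the deposited scale, 48.5% with quantile normalization and 76% with each library rescaled to TPM, which put the median of all genes at -0.01 and 0.10. When only the WT and Control libraries were fitted, 721 genes were higher and 319 lower, 69.3% of them higher, and 1025 of the 3037 calls remained. Without Control 3, 1584 of the 3037 calls remained, with 1148 genes higher and 732 lower in all. Without Control 1 the counts were 2888 and 1685.

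**Figure D2:**
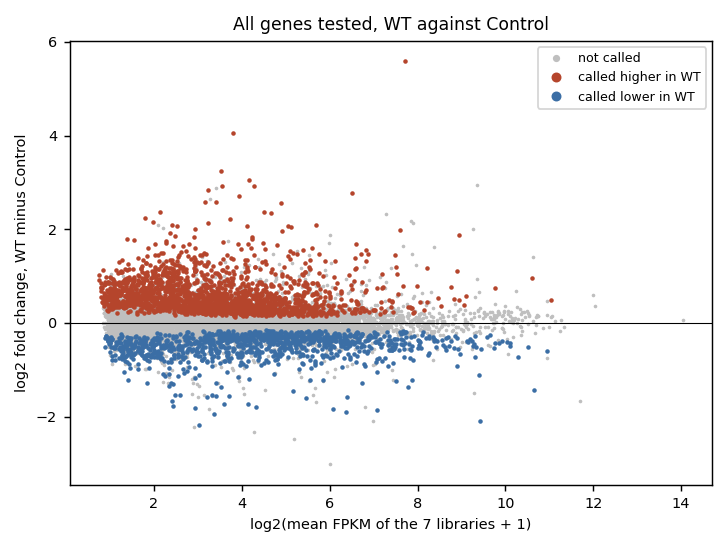
Log2 fold change, WT minus Control, of the 12788 genes tested against the log2 of their mean FPKM + 1 over the 7 libraries, with the 1933 genes called higher in WT and the 1104 called lower in colour. The highest point is Clca4b at 5.59.

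The genes with the strongest evidence of a rise were taken as the 12 with the smallest p among genes that rose by at least 1 on the log2 scale, reached a mean of 5 FPKM in WT and did not overlap between the groups. Their adjusted p lay between 0.000186 and 0.000187. Clca4b, a gene of the Clca regulators of chloride channels (gene ID 99709, chromosome 3, 144910921 to 144932529, GRCm38.p6), had 351, 526, 398 and 156 FPKM in WT 1 to 4, against 15.6, 2.94 and 3.82 FPKM in Control 1 to 3, and rose by 5.59 ± 0.58. The lowest WT library was thus at 156 FPKM and the highest Control library at 15.6. Khdc1a, a KH domain gene (gene ID 368204, chromosome 1, 21349677 to 21352199), had 25.9, 19.8, 16.4 and 26.9 FPKM in WT, against 0.64, 0.61 and 0 FPKM in Control, where 1 library was listed at 0. It rose by 4.04 ± 0.43. Adgrf1, an adhesion G protein-coupled receptor (gene ID 77596, chromosome 17, 43270283 to 43325876), had 17.1, 17.6, 10.6 and 9.95 FPKM in WT, against 1.5, 1.82 and 0.17 FPKM in Control, and rose by 2.83 ± 0.32. Control 3 was the lowest library for both of these genes, and without it the values were 3.81 and 2.44. Serpina3n, a secreted protease inhibitor of the acute-phase response, had 34.4, 43.2, 41.1 and 29.9 FPKM in WT, against 8.32, 8.1 and 3.89 FPKM in Control, and rose by 2.34 ± 0.27.

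The other 8 rose by 1.02 to 1.45. Tnfrsf1b, which encodes the second receptor of tumour necrosis factor, had 22.7, 23.4, 24.3 and 16.2 FPKM in WT, against 8.51, 8.17 and 6.92 FPKM in Control (1.34 ± 0.15). Ms4a4d, a membrane protein gene of the Ms4a family, had 10.3, 8.36, 8.99 and 9.05 FPKM in WT, against 4.0, 3.9 and 3.01 FPKM in Control (1.14 ± 0.12). Prex1, an activator of the GTPase Rac, had 5.49, 5.5, 6.08 and 6.61 FPKM in WT, against 2.03, 2.24 and 3.01 FPKM in Control (1.02 ± 0.11). The next 5 encode proteins of vessel walls or of the extracellular space. Pecam1, an adhesion molecule of endothelial junctions, had 20.2, 19.8, 20.6 and 22.5 FPKM in WT, against 9.61, 10.8 and 7.52 FPKM in Control (1.09 ± 0.12). Ramp2, a subunit of the adrenomedullin receptor, had 15, 12.2, 14.5 and 15.9 FPKM in WT, against 5.13, 7.18 and 5.93 FPKM in Control (1.12 ± 0.13). Col18a1, a basement membrane collagen from which endostatin is cut, had 18.6, 16.2, 16.8 and 13.8 FPKM in WT, against 5.92, 5.34 and 4.8 FPKM in Control (1.45 ± 0.17). Pecam1 and Ramp2 are known from endothelial cells. Ccdc80, a secreted matrix protein, had 12.8, 10.4, 11.5 and 11.6 FPKM in WT, against 3.97, 3.63 and 4.84 FPKM in Control (1.29 ± 0.15). Cytl1, a small secreted cytokine-like protein, had 5.63, 4.54, 4.69 and 5.3 FPKM in WT, against 1.49, 2.44 and 1.42 FPKM in Control (1.13 ± 0.13).

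Of the 12 genes with the strongest evidence of a fall, 11 are described. They included enzymes of detoxification and gluconeogenesis and a repressor of the circadian clock, with adjusted p of 0.000418 to 0.00353. Selenbp1, a methanethiol oxidase abundant in colonocytes (gene ID 20341, chromosome 3, 94933083 to 94944758), had 409.8, 416, 442 and 538 FPKM in WT, against 856, 925 and 1134 FPKM in Control, and fell by 1.10 ± 0.15. The carboxylesterase gene Ces2a had 67.2, 54.8, 68.3 and 61.1 FPKM in WT, against 107, 151 and 225 FPKM in Control (-1.28 ± 0.19). Ces2c, nearby on chromosome 8, had 114, 110.0, 147 and 134 FPKM in WT, against 209, 323 and 501 FPKM in Control (-1.36 ± 0.23). These 2 genes have close paralogs, and how shared reads were assigned is not given in the sources used here, so their single values are uncertain. Sult1a1, a phenol sulfotransferase, had 125, 132, 166 and 169 FPKM in WT, against 279, 315 and 458 FPKM in Control (-1.22 ± 0.20). Pck1, the committed enzyme of gluconeogenesis, had 28.8, 19.2, 30.2 and 35.2 FPKM in WT, against 45.3, 72.5 and 88.1 FPKM in Control (-1.23 ± 0.25). Control 3 was the highest library for all 5 of these metabolic genes, and without it the values were -0.99, -1.01, -1.04, -1.01 and -1.02.

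Cry1, the clock repressor, had 7.17, 9.15, 10.5 and 8.77 FPKM in WT, against 21.6, 23.7 and 17.8 FPKM in Control (-1.15 ± 0.19). Ppfia3, a synaptic scaffold gene, had 3.43, 3.19, 5.03 and 7.85 FPKM in WT, against 9.6, 17.8 and 31.2 FPKM in Control (-1.73 ± 0.31). The remaining genes were low in WT. Stmn3, a microtubule regulator of neurons, had 1.35, 2.25, 2.08 and 2.63 FPKM in WT, against 3.92, 6.24 and 6.6 FPKM in Control (-1.09 ± 0.18). Odf3b, related to a sperm tail protein, had 2.54, 1.11, 2.47 and 3.1 FPKM in WT, against 6.86, 7.95 and 5.76 FPKM in Control (-1.28 ± 0.23). Ctxn3, which encodes a small membrane protein, had 2.24, 2.59, 2.14 and 2.25 FPKM in WT, against 5.52, 4.02 and 9.62 FPKM in Control (-1.09 ± 0.22). Ifit1bl2 belongs to a family of interferon-induced genes with close copies. It had 7.21, 5.22, 4.49 and 5.58 FPKM in WT, against 11.8, 13.4 and 25.9 FPKM in Control (-1.38 ± 0.27). All 23 genes kept their calls when any 1 of the 7 libraries was left out, and also when only WT and Control libraries were fitted (adjusted p of 0.00423 to 0.046). Their choice by small p and lack of overlap in these same libraries favours this. Of all 3037 calls, 1584 remained without Control 3 and 1025 when only WT and Control libraries were fitted.

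**Figure D3:**
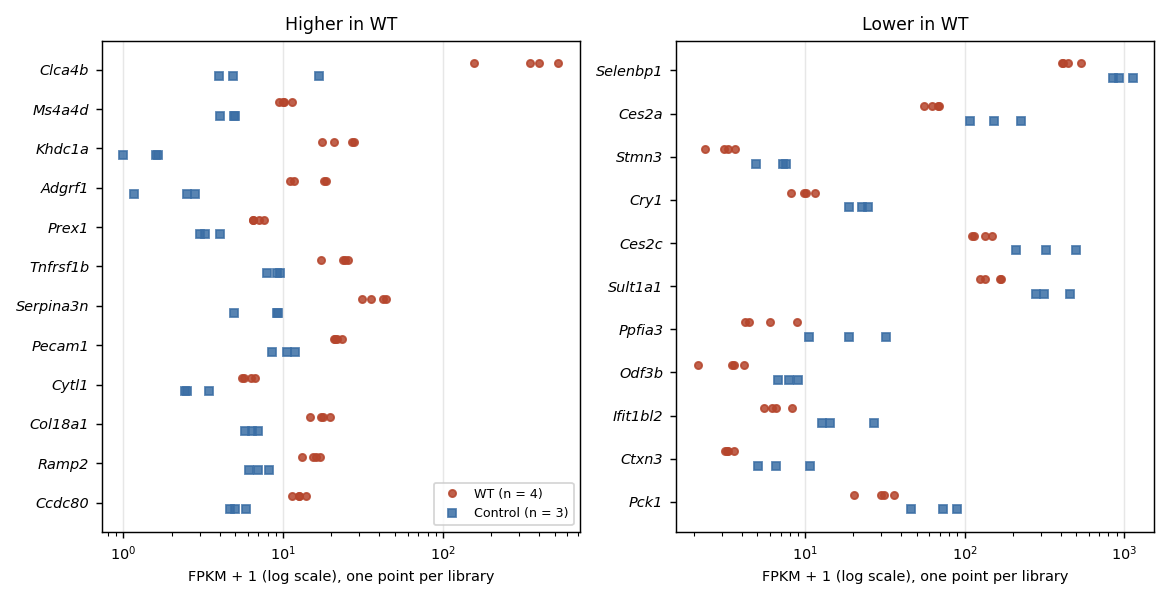
FPKM + 1 on a log axis of the 23 genes described with the smallest p, 12 that rose (left) and 11 that fell (right), 1 point per library, with WT (n = 4, circles) above Control (n = 3, squares). The groups do not overlap for any of the 23, which was part of how they were chosen, and Clca4b reaches the highest values among those that rose.

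Of the 6 tested Clca genes, 5 rose (median 1.17), beside 15.1% of all genes tested, and 3 rose without Control 3. These genes lie side by side on chromosome 3 and encode secreted or membrane-anchored proteins of the gut and airway epithelium that regulate calcium-activated chloride currents. Besides Clca4b, Clca3b averaged 281 ± 60.7 FPKM in WT and 73.9 ± 31.3 FPKM in Control and rose by 1.99 ± 0.28 (adjusted p = 0.000507), and Clca3a1 rose by 1.06 ± 0.15 (0.000468). Clca3a2 had 17.3, 17.5, 16.3 and 5.89 FPKM in WT, against 4.81, 7.13 and 3.16 FPKM in Control, and WT 4 lay below Control 2. Its rise of 1.28 ± 0.34 was not called without Control 3 (1.04). As close paralogs, these genes can share reads, and single values are uncertain.

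Genes of epithelial defence against bacteria rose in 7 of 20 cases (0.75 median) and none fell, with 1 falling without Control 1 or Control 3. The shares over all genes tested were 15.1% called higher and 8.63% called lower. The largest was Lrg1, a secreted glycoprotein of the acute-phase response. It had 10.9, 45.5, 47.9 and 8.3 FPKM in WT, against 1.12, 1.66 and 2.5 FPKM in Control, and rose by 3.05 ± 0.50 (adjusted p = 0.00108). WT 2 and WT 3 were several times as high as WT 1 and WT 4. Nos2, the inducible nitric oxide synthase, averaged 30.2 ± 18.9 FPKM in WT and 2.55 ± 1.22 FPKM in Control (2.91 ± 0.54), with the same order of WT libraries. Lbp, which binds lipopolysaccharide, and Slpi, an inhibitor of neutrophil elastase, rose by 2.58 ± 0.39 and 2.56 ± 0.48 (adjusted p = 0.000674 and 0.00214). The other 13 did not pass, and the values of the list ran from -1.80 to 3.05. Of 15 repair and fetal-type epithelial genes 5 rose, Anxa8 most (136 ± 23.2 FPKM in WT, 27.3 ± 20.6 FPKM in Control, 2.78 ± 0.56). Anxa1, an annexin that limits inflammation, rose by 1.19 ± 0.33. Without Control 3 the values were 1.76 and 0.74, the call of Anxa1 was lost, and 1 gene of this list was called. Without WT 2 and WT 4, the libraries high in squamous epithelium genes, 1 gene rose and Anxa1 was not called (adjusted p = 0.126). When only WT and Control libraries were fitted, 1 gene rose, 1 fell and Anxa8 was not called (adjusted p = 0.0577). The count was 2 without WT 1, WT 2 or WT 3, 3 without DSS 1, DSS 3 and KO 3, and 8 without Control 1.

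Promoter sequences show the start regions of 3 of these epithelial and chemokine genes beside one another. They are from RefSeq on GRCm38.p6, from 250 bases before to 50 after the start, with the NF-kB motif in capitals. The motif was searched as GGGA, any 4 bases and CC on either strand, and overlapping matches were joined. NF-kB is a transcription factor activated by bacterial products and cytokines. Positions are chr3:144932480-144932779 on the minus strand for Clca4b, chr8:94745434-94745733 on the plus strand for the chemokine gene Ccl22, and chr5:90890995-90891294 on the plus strand for the neutrophil chemokine gene Cxcl1.
Clca4b: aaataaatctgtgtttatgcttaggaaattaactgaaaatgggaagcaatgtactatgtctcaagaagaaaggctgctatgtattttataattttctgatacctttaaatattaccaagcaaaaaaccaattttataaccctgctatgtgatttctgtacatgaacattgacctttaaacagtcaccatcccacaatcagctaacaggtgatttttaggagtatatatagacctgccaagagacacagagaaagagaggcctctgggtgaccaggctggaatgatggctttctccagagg
Ccl22: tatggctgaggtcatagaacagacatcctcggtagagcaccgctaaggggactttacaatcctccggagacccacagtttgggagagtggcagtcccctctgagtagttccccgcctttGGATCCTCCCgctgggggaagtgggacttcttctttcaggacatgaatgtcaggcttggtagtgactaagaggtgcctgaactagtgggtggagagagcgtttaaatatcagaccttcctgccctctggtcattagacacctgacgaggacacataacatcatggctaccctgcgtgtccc
Cxcl1: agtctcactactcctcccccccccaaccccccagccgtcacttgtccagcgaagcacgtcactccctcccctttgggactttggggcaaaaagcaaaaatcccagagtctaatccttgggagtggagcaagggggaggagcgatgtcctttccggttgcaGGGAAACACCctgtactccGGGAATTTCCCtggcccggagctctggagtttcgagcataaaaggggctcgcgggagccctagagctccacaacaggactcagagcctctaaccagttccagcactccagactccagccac
The motif begins 131 bases before the start of Ccl22, and 90 and 71 before that of Cxcl1. The letters do not occur in the window of Clca4b. Ccl22 and Cxcl1 are not among the genes counted next and do not stand for them. A link of NF-kB to the changes was not tested. Of the 19 genes made up of the 12 that rose with the smallest p and the 7 defence genes that rose, 13 have promoters in the table. Of their 15 promoters, 4 hold the motif (26.7%; Adgrf1, Cp, Ms4a4d and Serpina3n), beside 20.7% of all 32851.

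Calls among brush border genes were mostly falls, beside 8.63% of all genes tested called lower. Of 21 brush border genes 7 fell and 1 rose (median -0.38). Ush1c, a scaffold of the links between microvilli, fell by 0.50 ± 0.06 (adjusted p = 0.000187; 66 ± 4.55 FPKM in WT and 93.8 ± 4.89 FPKM in Control). The microvillar protocadherin genes Cdhr5 and Cdhr2 fell by 0.54 ± 0.10 and 0.56 ± 0.12 (0.00158 and 0.00357). The member that rose was Maf, a transcription factor also present in macrophages (0.60 ± 0.12). Without Control 3, 3 members fell, without WT 1 or WT 2 4 fell, and without Control 1 12 fell; 2 rose without WT 4, and 2 fell when only WT and Control libraries were fitted. Of 15 small intestine genes 6 could be tested and none was called on all libraries, but 3 were called lower without Control 1. Their summed FPKM was 80.8 to 123 in WT and 103 to 676 in Control, with 2 members at 0 in all 7 libraries. Their part in the falls of brush border genes was not tested.

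Transport and junction genes went in both directions, beside 15.1% of all genes tested called higher and 8.63% called lower. Of 23 ion and water transport genes 3 fell and 1 rose. Car2, a carbonic anhydrase, fell by 0.67 ± 0.14 (398 ± 25.2 FPKM in WT, 633 ± 47.5 FPKM in Control, adjusted p = 0.00336). The sodium-proton exchanger gene Slc9a2 fell by 0.68 ± 0.17, a call lost without Control 3 (-0.43). The number that fell was 6 without Control 3 and 5 without Control 1, and the number that rose was 0 without Control 3 and 3 without Control 1. Of 19 tight junction and adhesion genes 3 rose and 3 fell, but 1 fell without Control 3, WT 2 or WT 3. The scaffold gene Tjp1 rose by 0.49 ± 0.09 and the claudin gene Cldn1 by 1.09 ± 0.24, while Cldn23 fell by 0.83 ± 0.20 (adjusted p = 0.00193, 0.00515 and 0.00942). Cldn1 was low, at 2.06 ± 0.446 FPKM in WT and 0.447 ± 0.318 FPKM in Control.

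Lists of secretory and proliferating cells held calls in both directions, beside 15.1% of all genes tested called higher and 8.63% called lower. Of 19 goblet cell and mucus genes 2 rose and 1 fell. Fcgbp, a mucus protein, averaged 610.3 ± 52.4 FPKM in WT and 302 ± 125 FPKM in Control and rose by 1.11 ± 0.24 (adjusted p = 0.00421), or 0.70 without Control 3. Without Control 1, 5 goblet cell genes rose, and 1 without Control 2, WT 1, WT 2 or WT 3. None fell without Control 1, Control 3, WT 1, WT 2 or WT 4. The 6 most abundant epithelial genes that were not called were Zg16, Car1, Tff3, Ceacam1, Agr2 and Car4. Car1, a colonic carbonic anhydrase, had 1056, 1051, 863 and 1288 FPKM in WT, against 2055, 1163 and 15636 FPKM in Control (-1.67 ± 0.67, adjusted p = 0.0797), so that a single Control library set its mean. Zg16 stood at 0.60 ± 0.24, Tff3 at 0.46 ± 0.20, the adhesion molecule gene Ceacam1 at -0.76 ± 0.27, Agr2, needed for mucin folding, at -0.25 ± 0.28 and Car4 at -0.66 ± 0.32. Of 12 enteroendocrine genes 2 fell, led by the granin gene Scg2 (-0.69 ± 0.16, adjusted p = 0.00614). Only 1 fell without Control 2, Control 3, WT 2, WT 3 or WT 4, and 1 rose without Control 1. Of 9 tuft cell genes 1 rose, Alox5ap (0.74 ± 0.18), which macrophages also express, and its call was lost without Control 3 (0.52), while without Control 1 5 tuft cell genes were called lower. Of 13 crypt stem cell and Wnt target genes 1 rose and 1 fell. The rise was called in none of the fits without 1 library other than Control 1. The fall was lost without Control 3, WT 2, WT 3 or WT 4, while 2 other members fell without Control 3. With quantile normalization 3 fell and none rose. Of 21 cell cycle genes 3 rose on all libraries, 0 without Control 2, Control 3, WT 1 or WT 2, 1 without WT 4 and 17 without Control 1, and all 21 values were above 0 (median 0.35).

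Markers of macrophages, monocytes and dendritic cells rose, beside 15.1% of all genes tested called higher. All 17 tested macrophage and monocyte markers rose (median 1.31, 0.54 to 2.05), 12 did without Control 3 and 8 when only WT and Control libraries were fitted. Itgam, an integrin subunit of myeloid cells, averaged 5.47 ± 0.423 FPKM in WT and 1.62 ± 0.442 FPKM in Control and rose by 1.31 ± 0.16 (adjusted p = 0.000235). Ms4a7, a macrophage membrane protein, rose by 1.48 ± 0.20, the monocyte chemokine receptor gene Ccr2 by 1.35 ± 0.19, and Adgre1, which encodes F4/80, by 1.41 ± 0.23 (adjusted p = 0.000426, 0.000428 and 0.00093). In whole tissue, a change in the number of cells and a change in RNA per cell cannot be told apart. Of 7 tested dendritic cell markers 5 rose, led by the lectin gene Clec10a (1.09 ± 0.16) and the integrin gene Itgax (1.07 ± 0.18), and 3 without Control 3 or without WT 3; 1 was called lower without Control 1 or Control 2. Of 16 neutrophil genes 6 could be tested and 4 rose, all at low levels. Ly6g, a surface antigen of neutrophils named after its values were seen, was the abundant member, with 241, 297, 276 and 225 FPKM in WT, against 344, 234 and 1.29 FPKM in Control (2.18 ± 1.11, adjusted p = 0.163, or -0.14 without Control 3). Control 3 was low, as it was for Hoxb13 above, and Control 1 lay above every WT library. Whether Ly6g followed neutrophils in these libraries was not tested. S100a8, a calprotectin subunit, had 2.48, 8.34, 5.1 and 1.47 FPKM in WT and was listed at 0 throughout Control (adjusted p = 0.0104). Csf3r, the receptor of granulocyte colony-stimulating factor, rose by 1.26 ± 0.26 (adjusted p = 0.00336) at 2.53 ± 0.906 FPKM in WT and 0.457 ± 0.241 FPKM in Control.

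Mast cell and plasma cell markers rose in part, and B cell markers did not pass the test. The shares over all genes tested were 15.1% called higher and 8.63% called lower. Of 5 mast cell markers 3 rose, the protease genes Mcpt4, Mcpt1 and Mcpt2, by 1.13 ± 0.17, 1.85 ± 0.35 and 1.38 ± 0.33 (adjusted p = 0.000586, 0.00214 and 0.00775). These are paralogs, and Mcpt1, the most abundant, averaged 7.05 ± 1.71 FPKM in WT and 1.31 ± 0.822 FPKM in Control. Of 10 plasma cell markers 6 rose, 3 without Control 3, 1 without WT 2 and WT 4, and none when only WT and Control libraries were fitted. Prdm1, the regulator of plasma cell fate, rose by 0.64 ± 0.15 (adjusted p = 0.00818) and was highest in Control 3 among the Control libraries. Mzb1, an endoplasmic reticulum protein of antibody-secreting cells, averaged 29 ± 5.31 FPKM in WT and 11 ± 7.98 FPKM in Control and rose by 1.70 ± 0.45, or 0.85 without Control 3. None of 11 B cell markers was called, with a median of 0.26 on all libraries and -0.45 without Control 3. T and NK cell markers rose in 5 of 14 cases, 3 without Control 3, and 1 fell. Cd4 averaged 6.25 ± 1.34 FPKM in WT and 2.2 ± 1.25 FPKM in Control and rose by 1.25 ± 0.29, the T cell receptor component gene Cd3g by 0.96 ± 0.22 and the inhibitory receptor gene Ctla4 by 0.87 ± 0.16 (adjusted p = 0.00727, 0.00648 and 0.00203).

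About as many chemokine genes rose as did not, and most cytokine genes that could be tested rose. The shares over all genes tested were 15.1% called higher and 8.63% called lower. Of 23 tested chemokine genes 12 rose and 1 fell (median 0.86), and none fell without Control 3. Ccl8, a monocyte attractant, averaged 24.8 ± 10.5 FPKM in WT and 4.96 ± 1.31 FPKM in Control and rose by 2.06 ± 0.32 (adjusted p = 0.000729). Cxcl12, made by stromal cells, rose by 1.15 ± 0.18, and the eosinophil attractant gene Ccl11 by 1.02 ± 0.18. Ccl22, made by dendritic cells and macrophages, had 3.74, 3.45, 3.66 and 2.5 FPKM in WT, against 1.12, 1.36 and 0.29 FPKM in Control (1.21 ± 0.23). Cxcl1, shown for its promoter, averaged 4.48 ± 1.45 FPKM in WT and 1.21 ± 1.38 FPKM in Control (1.46 ± 0.41, adjusted p = 0.0185); its call was lost without Control 3 (1.04) or WT 2 (1.30). Of 20 cytokine genes 7 could be tested and 6 rose. Il1b, a cytokine of activated macrophages, averaged 5.86 ± 0.843 FPKM in WT and 1.19 ± 0.883 FPKM in Control and rose by 1.71 ± 0.33 (adjusted p = 0.00243). Csf1, the macrophage growth factor, rose by 0.89 ± 0.16 (0.00192). The cytokine count was 3 without Control 3, WT 2 or WT 3, and also 3 without DSS 1, DSS 3 and KO 3.

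Few calls were made among interferon-induced and antigen presentation genes, beside 15.1% of all genes tested called higher and 8.63% called lower. Of 18 Toll-like receptor and inflammasome genes 4 rose, among them Tlr7 (0.70 ± 0.14), and 1 fell, a call lost without Control 3. Of 14 NF-kB targets 5 rose and 1 fell, with 2 and 2 without Control 3 and 3 rising without WT 3. Vcam1, an adhesion molecule of activated endothelium, rose by 1.30 ± 0.27, or 0.84 without Control 3, while the mitochondrial superoxide dismutase gene Sod2 fell by 0.24 ± 0.05 (adjusted p = 0.00357 and 0.00278). Of 23 interferon-induced genes 1 rose and none fell (median 0.02). The rise was lost without any 1 library other than Control 1, 3 rose without Control 1, and 1 fell without Control 2 or WT 4. Irf7, the regulator of type I interferon, stood at -0.90 ± 0.33 (adjusted p = 0.0579) with 91 ± 36.5 FPKM in WT and 173 ± 73.1 FPKM in Control. Of 10 MHC class II genes 1 rose, H2-Eb1 (0.90 ± 0.28), with its call lost without Control 3 (0.51), WT 3 (0.86) or WT 4 (0.82), or without DSS 1, DSS 3 and KO 3 (0.90). Without Control 2, 3 rose. Of 11 MHC class I presentation genes 1 fell, a call lost without any 1 library other than WT 4, and 2 fell without WT 4.

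Most connective tissue and vessel genes rose, beside 15.1% of all genes tested called higher. Of 19 collagen genes 16 rose (median 0.74), and 14 without Control 3. Col1a2, a chain of the fibrillar type I collagen, averaged 59.9 ± 8.31 FPKM in WT and 27.4 ± 8.5 FPKM in Control and rose by 1.14 ± 0.20 (adjusted p = 0.00149). Col4a1, of basement membranes, rose by 0.74 ± 0.13. Of 20 fibroblast and matrix genes 16 rose, with or without Control 3. The proteoglycan genes Bgn and Dcn rose by 1.48 ± 0.19 and 1.45 ± 0.23 (adjusted p = 0.000314 and 0.000783), Dcn at 244 ± 39 FPKM in WT and 91.7 ± 29.9 FPKM in Control. Lox, which crosslinks collagen, rose by 1.49 ± 0.22. Of 15 matrix proteases and inhibitors 10 rose, also without Control 3. The stromelysin genes Mmp3 and Mmp10 rose by 1.61 ± 0.23 and 2.15 ± 0.33 and the collagenase gene Mmp13 by 1.75 ± 0.26 (adjusted p = 0.000507, 0.000693 and 0.000665). None of the 3 exceeded 1.18 FPKM in a Control library.

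All 16 blood endothelial genes rose (median 0.69), beside 15.1% of all genes tested, and 15 rose without Control 3. Besides Pecam1, Tek, the angiopoietin receptor, rose by 0.75 ± 0.09, the VEGF receptor gene Flt1 by 0.65 ± 0.08 and the junction gene Cdh5 by 1.01 ± 0.13 (adjusted p = 0.000187, 0.000223 and 0.000249). All 5 tested lymphatic endothelial genes rose as well, with or without Control 3. Lyve1, a hyaluronan receptor, averaged 12.8 ± 2.1 FPKM in WT and 6.62 ± 0.556 FPKM in Control and rose by 0.85 ± 0.14 (adjusted p = 0.00109), and Pdpn and Mmrn1 rose by 1.03 ± 0.15 and 1.15 ± 0.18. Of 16 leukocyte homing genes 13 rose, 6 without Control 3 and 5 when only WT and Control libraries were fitted. Selp, the P-selectin of activated endothelium, averaged 1.4 ± 0.402 FPKM in WT and 0.203 ± 0.085 FPKM in Control and rose by 0.98 ± 0.18 (adjusted p = 0.00179). Selplg, its ligand on leukocytes, rose by 1.24 ± 0.23.

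**Figure D4:**
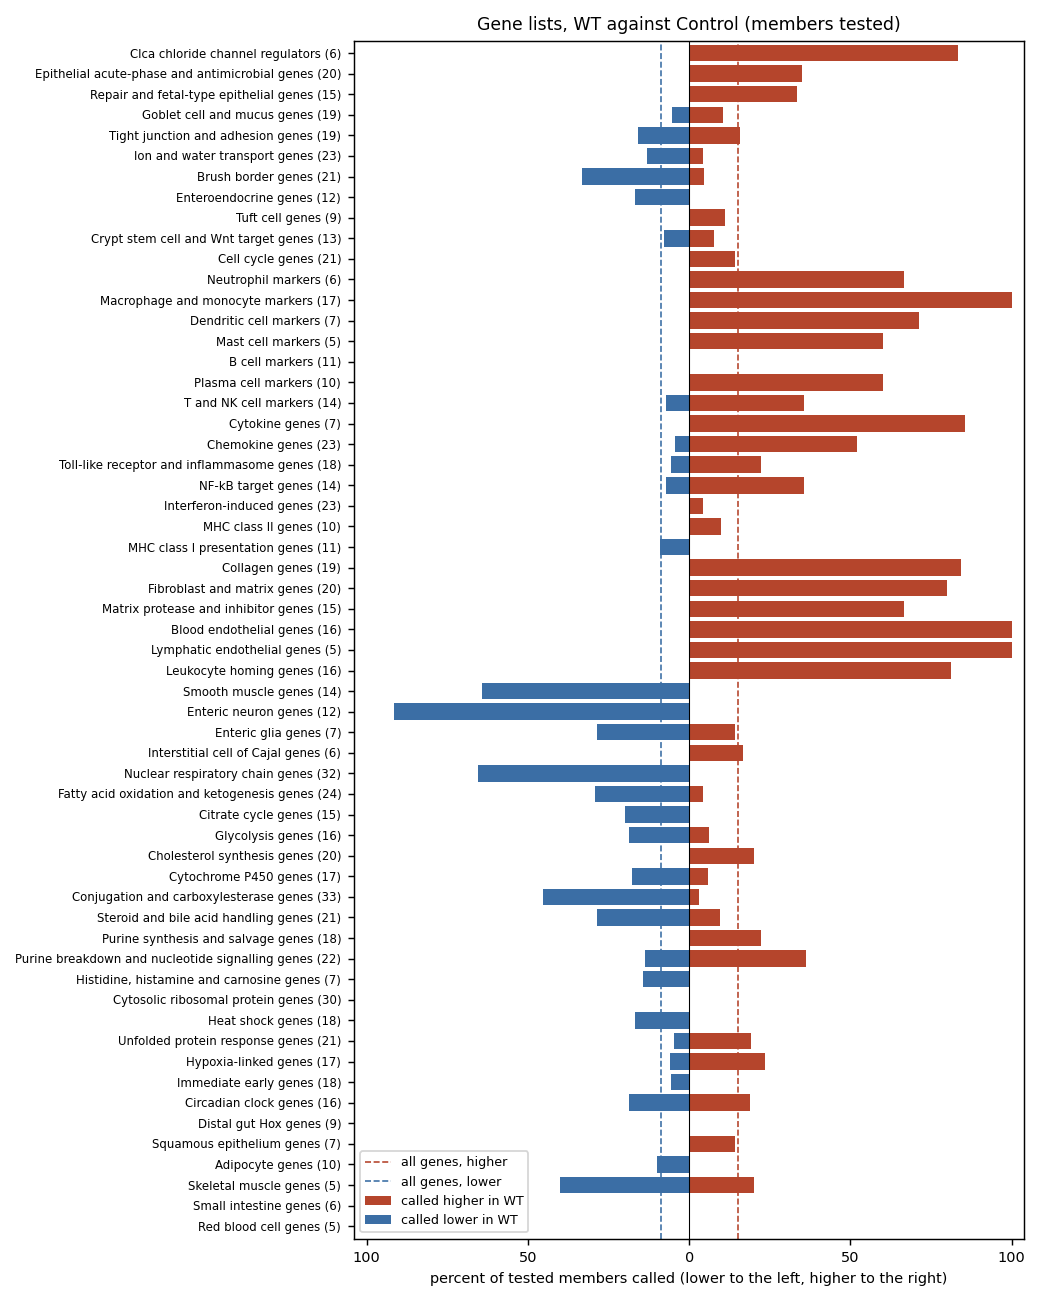
Percent of the tested members of each list with at least 5 of them that were called higher in WT (right) or lower in WT (left), with the number tested in brackets and dashed lines at the shares over all genes, 15.1% and 8.63%. Macrophage, blood endothelial and lymphatic endothelial lists were higher in all tested members, and enteric neuron, respiratory chain and smooth muscle lists were lower in most.

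Most genes of the smooth muscle and of enteric neurons fell, beside 8.63% of all genes tested called lower and 15.1% called higher. Of 14 smooth muscle genes 9 fell and none rose (median -0.49), and 10 fell without Control 3. Myl9, a myosin light chain, averaged 331 ± 38.2 FPKM in WT and 494 ± 5.99 FPKM in Control and fell by 0.58 ± 0.10 (adjusted p = 0.00167). Desmin (Des), myosin light chain kinase (Mylk) and calponin (Cnn1) fell by 0.74 ± 0.14, 0.66 ± 0.13 and 0.65 ± 0.13 (adjusted p = 0.00192, 0.00248 and 0.00305). Of 12 enteric neuron genes 11 fell (median -0.65), against 5 without Control 2 or without Control 3 and 3 when only WT and Control libraries were fitted. Snap25, of the synaptic vesicle fusion machinery, averaged 6.66 ± 0.878 FPKM in WT and 12 ± 2.93 FPKM in Control and fell by 0.74 ± 0.16 (adjusted p = 0.00452). Elavl4 and Syt1, both neuronal, fell by 0.69 ± 0.14 and 0.69 ± 0.15. Of 7 enteric glia genes 2 fell and 1 rose, and of 6 interstitial cell of Cajal genes 1 rose, the gap junction gene Gja1 (0.69 ± 0.15). No glia gene was called without Control 3, 1 fell without WT 3 or WT 4, and none rose without WT 1 or WT 3. With quantile normalization 5 glia genes fell and none rose. Without Control 1 or Control 2, 2 of the Cajal cell genes rose, and without Control 1 1 fell.

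Most nuclear genes of the mitochondrial respiratory chain fell, each by less than 1 on the log2 scale. The shares over all genes tested were 8.63% called lower and 15.1% called higher. Of 32 nuclear respiratory chain genes 21 fell, none rose and all 32 values were below 0 (median -0.35, lowest -0.55), 17 fell without Control 3 and 11 when only WT and Control libraries were fitted. Cox4i1, a cytochrome c oxidase subunit, averaged 578 ± 15.8 FPKM in WT and 859 ± 173 FPKM in Control and fell by 0.55 ± 0.10 (adjusted p = 0.00194). The complex I genes Ndufv1 and Ndufa1 fell by 0.35 ± 0.05 and 0.51 ± 0.09 (0.000781 and 0.00193). Of 24 fatty acid oxidation and ketogenesis genes 7 fell and 1 rose. Bdh1, which converts ketone bodies, fell by 0.38 ± 0.09 (adjusted p = 0.00894). That count was 2 without Control 3, 4 without WT 1, WT 2 or WT 3, 4 without DSS 1, DSS 3 and KO 3, 16 without Control 1 and 0 when only WT and Control libraries were fitted. The 1 rise was lost without any 1 library other than Control 1. Adipocyte genes, with none of 12 at 0 throughout, summed to 148 to 231 FPKM in WT and 99.3 to 520.1 FPKM in Control, highest in Control 3, and their part in these values was not tested. Of 15 citrate cycle genes, with Pck1 among them, 3 fell. Of 16 glycolysis genes 3 fell and 1 rose, Pfkfb3, which makes an activator of glycolysis (1.30 ± 0.26, adjusted p = 0.00304), with 2 rising without WT 4.

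Genes of detoxifying enzymes fell in part, beside 8.63% of all genes tested called lower and 15.1% called higher. Of 33 conjugation and carboxylesterase genes 15 fell and 1 rose (median -0.61), and 8 fell without Control 3 (median -0.29). The 1 rise was lost without Control 2 or any WT library, and 2 rose without Control 1. Beside Ces2a, Ces2c and Sult1a1, Ces1d fell by 1.73 ± 0.38 (adjusted p = 0.00488). Of 17 cytochrome P450 genes 3 fell and 1 rose, and 6 fell without Control 1. Cyp2c55 averaged 195 ± 26.9 FPKM in WT and 1339.7 ± 1571 FPKM in Control, with 3149.9 FPKM in Control 3, and fell by 2.08 ± 0.54, or by 1.12 without that library. Of 21 steroid and bile acid handling genes 6 fell, 2 without Control 3, and 2 rose, 4 without Control 1 and 1 without Control 3 or any WT library. Hsd17b2, which inactivates sex steroids, fell by 0.64 ± 0.11 (adjusted p = 0.00133), and the drug efflux pump gene Abcb1b rose by 0.83 ± 0.13 at 1.28 ± 0.161 FPKM in WT and 0.287 ± 0.133 FPKM in Control.

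Purine and histidine metabolism are named in the title of the series. Of 18 genes of purine synthesis and salvage 4 rose and none fell (median 0.22), beside 15.1% of all genes tested called higher and 8.63% called lower. Without Control 1, 9 rose and 1 fell. Atic, which closes the purine ring, averaged 41.1 ± 5.1 FPKM in WT and 28.5 ± 2.05 FPKM in Control and rose by 0.51 ± 0.10 (adjusted p = 0.00357), and Prps1, which makes the ribose donor of purine synthesis, rose by 0.72 ± 0.17 (0.00699). Of 22 genes of purine breakdown and nucleotide signalling 8 rose and 3 fell, with 5 rising without Control 3 or without WT 2. Entpd1, the ectonucleotidase CD39, averaged 8.71 ± 0.382 FPKM in WT and 3.47 ± 1.46 FPKM in Control and rose by 1.17 ± 0.20 (adjusted p = 0.00123). P2rx7, a receptor of extracellular ATP, rose by 0.68 ± 0.13, while Entpd8, another ectonucleotidase, fell by 0.72 ± 0.15 (adjusted p = 0.00234 and 0.00379). Entpd1 and P2rx7 are expressed by macrophages, whose 18 markers summed to 512 to 613 FPKM in WT and 104 to 354 FPKM in Control with none at 0 throughout. The part of these cells in the changes was not tested. Of 7 tested genes of histidine, histamine and carnosine 1 fell, and 2 without Control 1. It was Cndp2, whose product cleaves carnosine, and it fell by 0.54 ± 0.10 (adjusted p = 0.00156; 25.3 ± 2.44 FPKM in WT and 37.5 ± 4.71 FPKM in Control). Hnmt, which inactivates histamine, stood at -0.30 ± 0.15 (adjusted p = 0.15).

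Leaving out Control 3 moved list medians unequally. The medians of collagen, fibroblast, blood endothelial and lymphatic endothelial genes were 0.65, 0.68, 0.70 and 0.91 without it, against 0.74, 0.76, 0.69 and 0.85 with it. Those of macrophage and leukocyte homing genes were 0.94 and 0.60, against 1.31 and 0.87. The median of conjugation genes shrank to -0.29, and those of B cell markers and distal gut Hox genes turned below 0.

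**Figure D5:**
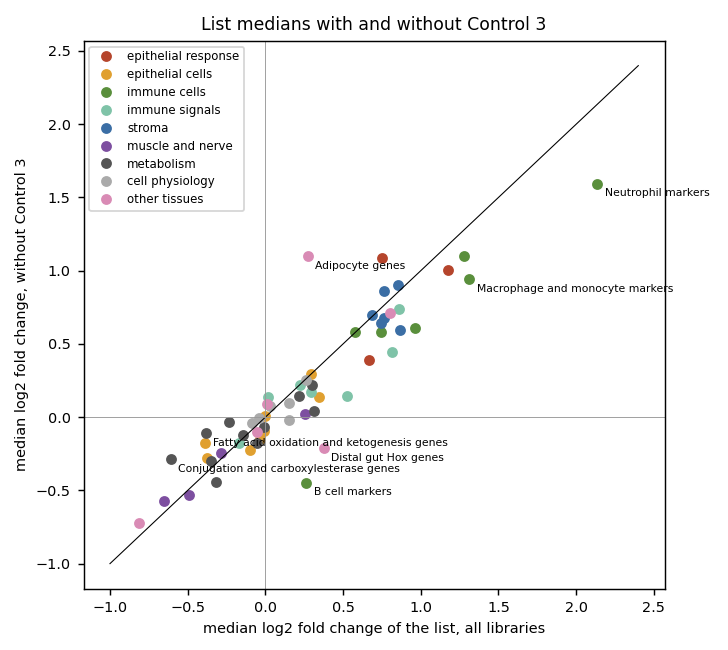
Median log2 fold change, WT minus Control, of each list with at least 5 tested members without Control 3 against the median with all libraries, coloured by theme, with the line of equal values. The collagen, fibroblast, blood endothelial and lymphatic endothelial lists lie near the line, and the B cell list lies below it and the adipocyte list above it.

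The DSS group, gavaged with PBS, shows the levels after DSS without the bacteria. Between WT and DSS limma called 0 of 12788 genes (0%), the smallest adjusted p was 1, and 574 genes had an unadjusted p under 0.05. A count of 0 at these group sizes does not show that WT and DSS are alike. For the 23 genes described with the smallest p, the differences WT minus DSS lay between -0.59 and 0.73. DSS 1 and DSS 3 were the libraries high in pancreatic acinar genes, and DSS 2 had a squamous epithelium mean of 3.59. With DSS 1, DSS 3 and KO 3 left out, DSS is a single library, assumed to vary like the other groups. The count was then 0, with 485 genes at an unadjusted p under 0.05, and the 23 differences lay between -0.43 and 0.32. Clca4b averaged 358 ± 154 FPKM in WT, 204 ± 65.6 FPKM in DSS and 7.47 ± 7.09 FPKM in Control (WT minus DSS 0.73 ± 0.58, or 0.28 ± 0.79 with DSS 2 alone). Selenbp1 averaged 452 ± 59.3, 443 ± 9.6 and 972 ± 145 FPKM in WT, DSS and Control (WT minus DSS 0.02 ± 0.15). Pck1 had the lowest difference, -0.59 ± 0.25 (-0.43 ± 0.40 with DSS 2 alone), at 28.3 ± 6.66 FPKM in WT, 42.4 ± 6.17 FPKM in DSS and 68.6 ± 21.7 FPKM in Control. The comparisons of WT and of DSS with Control share the Control libraries, so their values are only set side by side. List medians against Control were 1.31 in WT and 1.21 in DSS for macrophage markers, 0.74 and 0.79 for collagens, -0.65 and -0.47 for enteric neurons, and -0.35 and -0.34 for the respiratory chain. B cell markers stood at 0.26 in WT and 1.37 in DSS, and mast cell markers at 1.28 in WT and 0.74 in DSS. Of the 11 B cell markers, 0 were called higher in DSS than in Control. Their mean log2(FPKM + 1) was 3.50, 3.32 and 3.64 in DSS 1 to 3, against 2.92, 3.14 and 0.40 in Control 1 to 3. The value of 1.37 thus includes the low Control 3. With DSS 2 as the only DSS library, the medians in DSS were 1.48 for macrophage markers, 1.03 for collagens, -0.29 for enteric neurons, -0.41 for the respiratory chain, 1.21 for B cell and 0.89 for mast cell markers.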

How the data were processed

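RNA of rinsed, snap-frozen whole colon was sequenced on the DNBSEQ platform (per the labels). The table the authors deposited holds FPKM for 18349 genes in 18 libraries; the build is mm10 per the submitters' processing notes, but for the aligner, the counting program and its handling of strand or shared reads the sources used here give nothing. Symbols came from RefSeq GRCm38.p6 for 18230 gene IDs, and 119 were not matched.

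FPKM holds no read counts, so values were transformed to log2(FPKM + 1). Genes that reached 1 FPKM in 3 or more of the 7 WT and Control libraries were tested, and 5561 were not. All 18 libraries, in 5 groups that share 1 estimate of the spread, were fitted with limma 3.58.1 in R 4.3.3, which moderated the variances along their trend with the mean. Contrasts were tested two-sided with Benjamini-Hochberg adjustment over all genes tested. No 2 of the 7 libraries shared more than 0.538% of identical values above 1 FPKM. The fit was tested on simulated data. Same-numbered WT and Control libraries deviated together only weakly (r of 0.0771, -0.0376 and 0.112 over genes), so the numbers were not taken to pair them.

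The comparison and the 61 gene lists (1042 genes, 870 tested, 325 called) were chosen with earlier results of these data known. Lists are described by counts and medians. Besides the 12 genes with the smallest p in each direction, up to 4 members of each list were named, called ones with the smallest p first, and the 6 most abundant epithelial genes not called. Cxcl1 was added for its promoter and Ly6g after its values were seen. Predicted genes, pseudogenes and immune receptor segments were left out, and some genes are not reported here. Promoters came from RefSeq. Alternatives were other pseudocounts, filters and scalings, fewer libraries, the replicate number as a block, no variance trend and a fold threshold. The fits of WT and Control libraries without Control 3, and of all libraries without DSS 1, DSS 3 and KO 3, were added after seeing the data.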

Additional observations from a re-analysis of the deposited data

Results flagged for a closer look

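In 5 of the genes named, 1 WT library lay far from the other 3, by the ratio of its gap to the nearest library to the range of the 4 (on the log2 scale, above the 95% critical value of Dixon's test). Chance gives such a library in about 1 of 20 groups, and 129 genes were examined. WT 4 was the low library in Clca3b (ratio 0.900, 190.3 FPKM) and in Clca3a2 (0.932, 5.89 FPKM). In Col1a2 WT 1 was the high library (0.874, 72.3 FPKM). In Ndufv1 WT 3 was the low library (0.951, 57 FPKM), and in Cyp2c55 WT 2 was (0.838, 156 FPKM).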

How the results depend on the processing

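On all libraries 1933 genes were higher and 1104 lower in WT than in Control. The counts were 721 and 319 with only WT and Control libraries in the fit, 948 and 529 with those but without Control 3, 955 and 500 without WT 2 and WT 4, 1537 and 870 without DSS 1, DSS 3 and KO 3 (2385 of the 3037 calls remained), and 251 and 50 with a log2 fold change of at least 1 required. They ranged from 1148 to 2888 and from 732 to 1685 when 1 library was left out. They were 1535 and 917 with the replicate number as a block (replicate block), though the numbers did not pair the samples. Quantile normalization gave 1396 and 1485, rescaling to TPM 2611 and 826. The other pseudocount, filters and variance model moved each count by less than 1.5 times. Fewer samples enter the fits without a library; otherwise the cause was not tested.

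Of the 119 called genes named, 113 kept their calls when any 1 library was left out, 6 lost them without Control 3, and 95 kept them in the fit of WT and Control libraries alone. Most were named for their small p in these same libraries, and some called list members that lost their calls were not named. The 119 thus do not stand for all calls. Of all 3037 calls, 1584 remained without Control 3 and 1025 in the fit of WT and Control libraries alone. In that fit no gene rose among goblet cell, tuft cell, crypt stem cell, cell cycle, plasma cell and MHC class II genes, and none fell among tight junction, enteroendocrine, crypt stem cell, fatty acid oxidation and cytochrome P450 genes. Without DSS 1, DSS 3 and KO 3, the lists of goblet cell, enteroendocrine, crypt stem cell, interferon-induced, MHC, enteric glia and steroid handling genes each lost 1 of their 1 or 2 calls in a direction. Without Control 3, with or without the other groups in the fit, 3 genes that were not called changed sign. The value of Hoxb13 was -0.39, and it ranged up to 3.46 when 1 library was left out. The value of Agr2 was 0.16, with a low of -0.46. The value of Ly6g was -0.14, and it ranged up to 3.48, a call made without Control 1. The unknown read depth limits what can be said of genes near 0 FPKM, and the 4 and 3 libraries of the groups limit small differences.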

Other observations

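Circadian clock genes differed between WT and Control in both directions: of 16 tested, 3 rose and 3 fell, with 5 falling without Control 3, 5 rising without Control 1, and 1 rising when only WT and Control libraries were fitted. Nr1d1, a repressor of the clock, had 50, 42.5, 39.8 and 56 FPKM in WT 1 to 4, against 4.48, 14.1 and 16.5 FPKM in Control 1 to 3, and rose by 2.08 ± 0.33 (adjusted p = 0.00093). Its relative Nr1d2 rose by 0.98 ± 0.24, or 0.61 without Control 1. Cry1, described above, was among those that fell. The time of day at which tissue was taken is not given in the labels. Over all genes tested, 15.1% were called higher and 8.63% lower. Genes of protein folding in the endoplasmic reticulum rose in 4 of 21 cases. Among the 4 were the chaperone gene Hsp90b1 (0.54 ± 0.12, adjusted p = 0.00645) and the sensor gene Atf6 (0.36 ± 0.08). Ddit3, a stress-induced transcription factor, fell by 0.47 ± 0.08. None of the 4 was called when only WT and Control libraries were fitted. Of 18 heat shock genes 3 fell, and 6 without Control 1. Cryab, a small heat shock protein also abundant in muscle, fell by 0.60 ± 0.10 (adjusted p = 0.00139), and Hspa1a averaged 6.26 ± 1.09 FPKM in WT and 36 ± 39 FPKM in Control, with 80.7 FPKM in Control 3 (-1.80 ± 0.47, or -0.95 without it).

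Of 17 hypoxia-linked genes 4 rose, 2 without Control 3, and 1 fell, the vascular growth factor gene Vegfa (22.8 ± 2.18 FPKM in WT, 34.9 ± 7.19 FPKM in Control, -0.58 ± 0.12, adjusted p = 0.00351). Plod2, a collagen-modifying enzyme, rose by 0.60 ± 0.12. Of 20 cholesterol synthesis genes 4 rose, beside 15.1% of all genes tested. The count of 4 was 12 without Control 1 and 2 without Control 3, WT 2 or WT 3. Of 18 immediate early genes, which respond within minutes to handling and stress, 1 fell and none rose. None fell without WT 2 or WT 3, 2 fell without Control 1, Control 3 or WT 4, and 1 rose without Control 2. None of 30 cytosolic ribosomal protein genes was called on all libraries on the deposited scale, but 16 were called higher without Control 2 and 2 without Control 1, and 11 were called higher with quantile normalization and 4 on the TPM scale. None of 5 tested red blood cell genes was called.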
